A study of Oryctolagus cuniculus with 4 samples.

Results

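Heat shock proteins and chaperones were taken as every gene of the deposited matrices whose symbol begins with HSP (followed by a digit or a letter from A to E), DNAJ, CCT or HSF, together with the BAG family from BAG1 to BAG6. The extracellular matrix gene HSPG2, which shares only letters with them, was left out. This rule found 57 of the 18475 genes, of which 9771 carry a symbol. The 57 genes held 2.46% of all UMIs, where a UMI (unique molecular identifier) marks 1 captured RNA molecule.

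Chaperones bind other proteins while these fold, are moved across a membrane or come apart. The HSP70 proteins work with J-domain partners (DNAJ), which bring them their clients, and with nucleotide exchange factors (the BAG and HSPA4 families), which let the client go. HSP90 matures kinases and receptors, the small heat shock proteins hold unfolded proteins in solution, HSPD1 folds proteins in mitochondria, and the CCT ring folds actin and tubulin. The heat shock factors (HSF) switch on the inducible genes when proteins unfold. Smooth muscle relies on the small heat shock proteins and BAG3 while it is stretched and contracts, as the bladder does at each filling.

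Bladder mucosa of 4 adult New Zealand rabbits was dissociated and sequenced cell by cell in droplets, each rabbit giving 1 unpooled library. The 2 normal rabbits (Normal_1, Normal_2) were sampled under homeostasis, and the 2 injured rabbits (Injury_1, Injury_2) on day 10 after a focal piece of mucosa had been cut out, when new urothelium had just closed over the wound. The labels name no drug treatment or genetic change, and animals were put under pentobarbital for surgery. All 4 tissues were cut up and kept in collagenase II at 37 °C for 1 to 2 h before the cells were captured, so that normal samples carried this step too, and the tissue labelled urothelium held stroma, vessels, muscle and immune cells beside epithelium.

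After filtering, 4308 (Normal_1), 6027 (Normal_2), 6081 (Injury_1) and 5529 (Injury_2) cells were kept, and between 4 and 12 kept barcodes were shared by any 2 libraries. Normal_1 was the shallowest library, with a median of 4813.5 UMIs per cell against 6755 to 7186 in the others, and it lost the most barcodes to the mitochondrial limit (1388 against 593 to 856). Levels are in CPM: the UMIs of all cells of 1 class in 1 sample were added up, and each gene's part of that sum was scaled to the same total. They count 3′ ends and are not divided by length, and equal CPM in 2 classes says nothing of the RNA content per cell. The cells were clustered without the member genes, and 6 classes had at least 50 cells in every sample: fibroblast-like (8935 cells), endothelial-like (5384), smooth muscle and pericyte-like (2123), epithelial-like (1532), macrophage-like (1428) and T cell-like (1184). They are called by these names below without the ending, and highest and lowest class refer to these 6 alone, smaller classes not being ranked. CD3D, CD3E and CD3G have no row with their symbol here, and the T cells rest on other markers such as ZAP70 and TNFRSF25.

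A few members carried most of the signal. HSPA8, the constitutive cytosolic HSP70, took 31.2% of the UMIs of all members, and HSPB1, the most widespread small heat shock protein, took 28.1%. HSP90AB1, the constitutive cytosolic HSP90, followed with 12.5%, and HSP90B1, the HSP90 of the endoplasmic reticulum, with 7.54%. These 4 genes together made up 79.3%. Of the 57 members, 37 reached 20 CPM in their highest class, 6 lay between 5 and 20 CPM, and 14 stayed under 5 CPM. DNAJB8, DNAJC5B and DNAJC5G had 0 UMIs in the 4 libraries, and DNAJB13, HSPB9, CCT8L2, HSPA1L, CCT6B, HSF5 and DNAJC6 had between 2 and 58. HSPA1L is nearly identical in sequence to other HSP70 genes, and the RefSeq table gives CCT6B as another name of CCT6A, so the low counts of these 2 rows are uncertain. Of 24 well-known heat shock genes, 13 have a row with their symbol, and HSPA1A, HSPA1B, HSPA5, HSP90AA1, HSPE1, DNAJA1, DNAJB1 and HSF1 are among those not analysed here.

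The classes differed widely in these genes. A comparison of each class with the mean of the other 5, within samples, called 35 of the 48 members tested in fibroblasts (22 higher and 13 lower), where 60.2% of all genes tested were called (35.2% higher and 24.9% lower). The calls were 32 in endothelial cells (23 higher, 9 lower), where 51.5% of all genes were called (28.8% higher and 22.7% lower), and 25 in smooth muscle and pericytes (20 higher, 5 lower), where 46.1% were called (28.3% and 17.8%). They were 31 in epithelial cells (15 higher, 16 lower) with 60.4% of all genes called (31.6% higher and 28.8% lower). They were 22 in macrophages (6 higher, 16 lower) with 46.4% called (24.3% and 22.1%), and 27 in T cells (12 higher, 15 lower) with 54.9% called (22.8% and 32.0%). The classes were defined by other genes of the same cells, so that a large share of all genes had to differ. The median log2 fold change of the 48 members was 0.33 in fibroblasts (all genes 0.07), 0.31 in endothelial cells (0.01), 0.16 in smooth muscle and pericytes (0.04), -0.08 in epithelial cells (-0.05), -0.25 in macrophages (-0.10) and -0.05 in T cells (-0.25). Among the 37 members of at least 20 CPM, T cells were highest for 11, endothelial cells for 9, epithelial cells for 8, smooth muscle and pericytes for 5 and fibroblasts for 4, and macrophages for 0. For 5 of the 37 the samples of the highest class lay above every sample of the next class: BAG3 (fibroblasts), CCT3 (T cells), DNAJB12 (endothelial cells), DNAJC11 (epithelial cells) and HSPB8 (smooth muscle and pericytes). How many of all genes show such a gap was not counted, so this count is no result particular to the members.

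**Figure D1:**
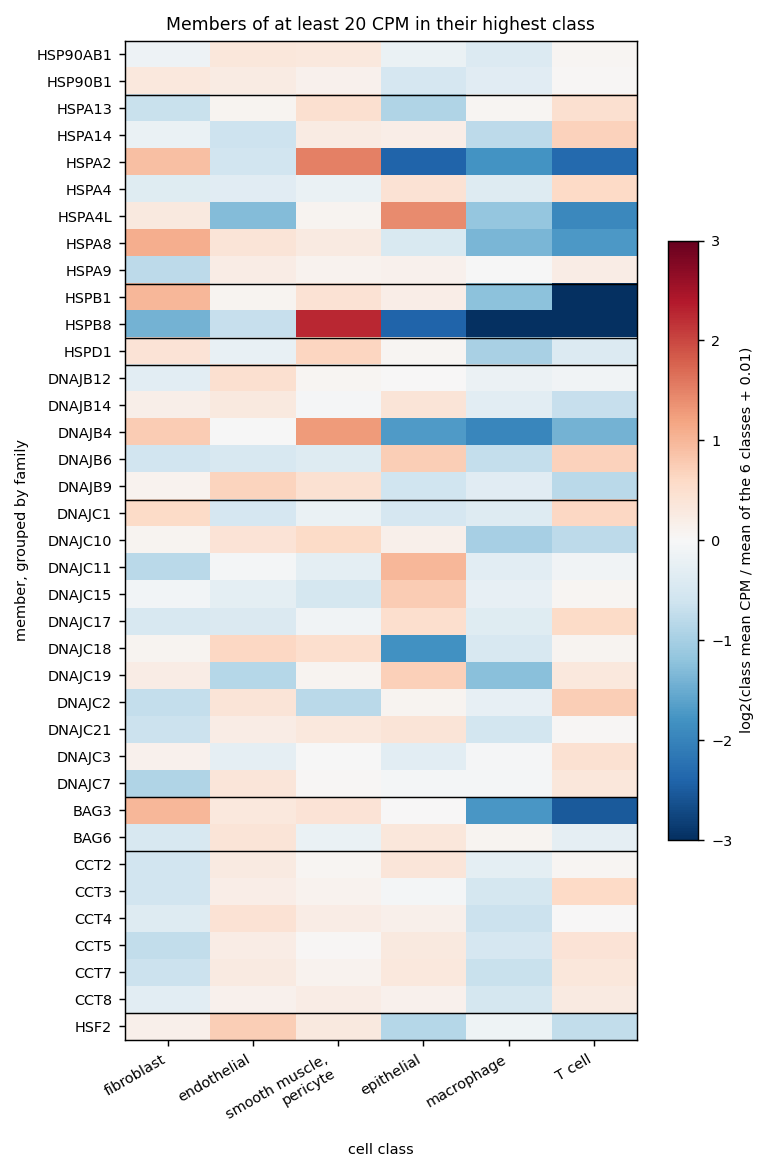
Level of the 37 members of at least 20 CPM (rows) in the 6 classes (columns), drawn as the log2 ratio of the class mean over 4 samples to the mean of the 6 classes, with a pseudocount of 0.01 and colours that end at -3 and 3. HSPB8 stands out in smooth muscle and pericytes, HSPB1 and BAG3 are low in T cells, and the CCT subunits are low in fibroblasts.

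Stromal cells were richest in the cytosolic HSP70 and the small heat shock proteins. HSPA8 stood at 18134 CPM in fibroblasts of Normal_1, 12282 in Normal_2, 8035 in Injury_1 and 8999 in Injury_2, a mean of 11863 ± 4559 (SD, n = 4). The mean was 7346 ± 2207 in endothelial cells and 1657 CPM in T cells, the lowest class, so that fibroblasts held 7.16 times the T cell level. Every fibroblast sample lay above every epithelial, macrophage and T cell sample, while fibroblast and endothelial samples overlapped. HSPA8 was higher in fibroblasts than in the other classes by a log2 fold change of 1.75 ± 0.12 (SE, edgeR adjusted p = 2.26e-11) and lower in T cells by one of -1.87 ± 0.15.

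HSPB1 was also highest in fibroblasts and lowest in T cells, with a wider span. Its level in fibroblasts was 12157 CPM in Normal_1, 12290 in Normal_2, 5382 in Injury_1 and 9859 in Injury_2. In T cells it was 382, 323, 167 and 238 CPM in the same order of samples. The fibroblast mean was 35.8 times the T cell mean, and no fibroblast sample overlapped a T cell sample. The log2 fold change was 2.04 ± 0.10 in fibroblasts (edgeR adjusted p = 1.21e-13) and -4.41 ± 0.16 in T cells (edgeR adjusted p = 1.98e-15). It was also higher in smooth muscle and pericytes (1.08 ± 0.11), epithelial cells (0.98 ± 0.11) and endothelial cells (0.81 ± 0.11). Free RNA from broken cells can put UMIs of an abundant gene into other droplets: the fibroblast gene DCN, which leukocytes should lack, stood at 14594 to 30523 CPM in fibroblasts, at 407 to 1060 CPM in macrophages and at 36.8 to 572 CPM in T cells, and its part in the HSPB1 counts of these 2 classes was not tested.

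BAG3, the co-chaperone that joins HSP70 to HSPB8 and directs worn proteins to autophagy, was, of the 6 classes, highest in fibroblasts (529.9 ± 80.7 CPM), followed by smooth muscle and pericytes (349 ± 27.9) and endothelial cells, and lowest in T cells (43.8 ± 32.4). Its log2 fold change was 1.85 ± 0.17 in fibroblasts and -2.63 ± 0.25 in T cells. HSPA8, HSPB1, BAG3 and the J-domain partner DNAJB4 are the 4 of 10 listed cytosolic genes of the heat response that have a row, HSPA8 being largely constitutive. All 4 were higher in fibroblasts, in endothelial cells and in smooth muscle and pericytes (35.2%, 28.8% and 28.3% of all genes). In macrophages and in T cells all 4 were lower (22.1% and 32.0% of all genes). In epithelial cells HSPB1 was higher and DNAJB4 lower (-1.34 ± 0.25). Immediate early genes are ones that digestion of a tissue can raise. Of the 9 listed with a row, 9 were higher in fibroblasts, JUN and EGR1 among them (35.2% of all genes), and 7 were lower in T cells (32.0%). Their sum averaged 12319 CPM in epithelial and 8840 CPM in endothelial cells, where HSPA8 averaged 4062 and 7346 CPM. The part of digestion in these class differences was not tested.

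**Figure D2:**
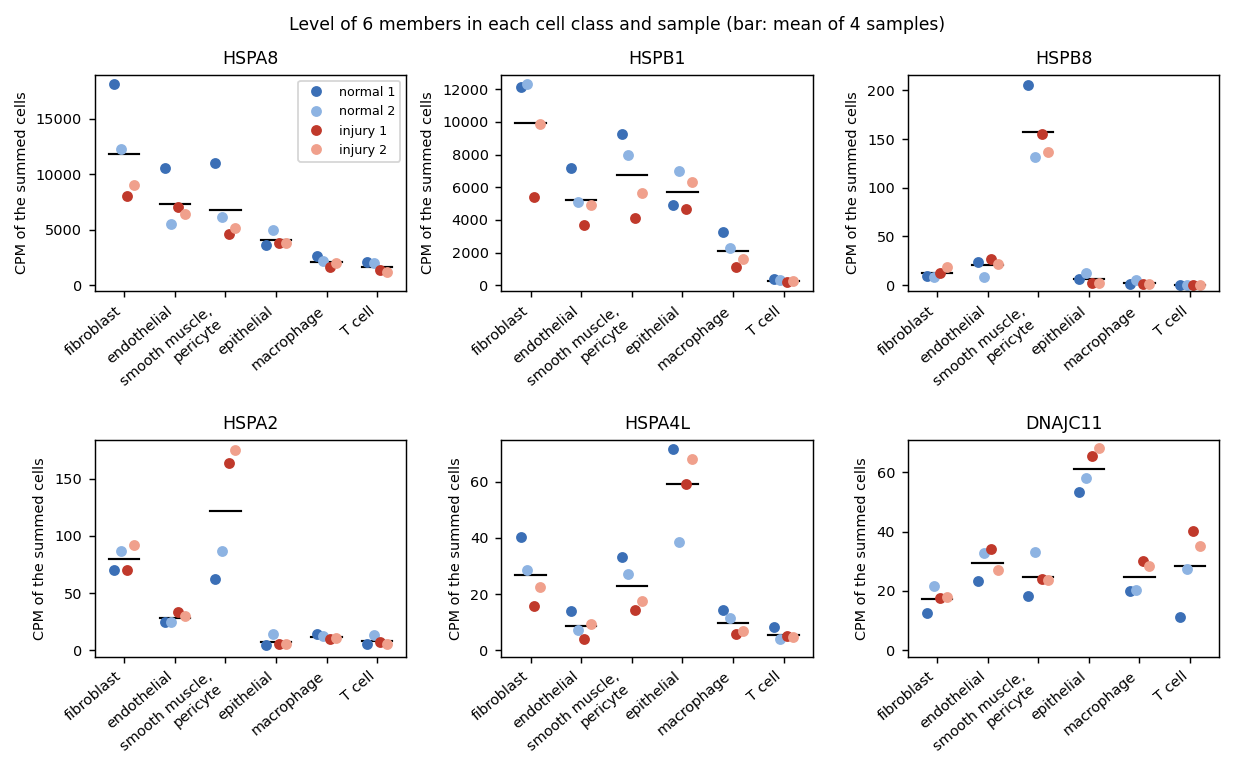
CPM of HSPA8, HSPB1, HSPB8, HSPA2, HSPA4L and DNAJC11 in each of the 4 samples (coloured points) for the 6 classes, on linear axes, with a bar at the mean of 4 samples. HSPA8 in fibroblasts runs from 8035 CPM in Injury_1 to 18134 CPM in Normal_1, and the HSPB8 samples of smooth muscle and pericytes lie above all samples of the other classes.

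Smooth muscle and pericytes stood apart through HSPB8, a small heat shock protein of muscle. Its level there was 206 CPM in Normal_1, 132 in Normal_2, 155 in Injury_1 and 137 in Injury_2 (158 ± 33.7), 7.76 times the mean of the endothelial cells that came next (20.3 ± 7.90). All 4 samples lay above every sample of the other classes, and T cells held 1 UMI of HSPB8 in each injured sample and 0 in each normal one. The fitted log2 fold change was 5.13 ± 0.33 (edgeR adjusted p = 1.50e-10). With each cell thinned to 2000 UMIs, 24.2% of smooth muscle cells and pericytes held a UMI of HSPB8 (40.9% unthinned, median 4497 UMIs per cell) against 0.0392% of T cells (0.169% unthinned, median 3399).

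HSPB3, another small heat shock protein of muscle, and DNAJC6 (auxilin, which strips clathrin from vesicles) had the same class as their highest at far lower levels. HSPB3 reached 6.48 ± 0.47 CPM from 12 to 21 UMIs per sample, and DNAJC6 reached 4.12 ± 2.25 CPM from 8 to 13 UMIs. Epithelial cells held 0 UMIs of HSPB3 and macrophages 0 UMIs of DNAJC6, so that the fitted log2 fold changes of 5.61 ± 0.58 and 5.78 ± 0.50 depend on the prior count and are no measure of the span. HSPA2, an HSP70 known for its role in sperm formation, was higher both in smooth muscle and pericytes (122 ± 55.7 CPM, log2 fold change 2.67 ± 0.21) and in fibroblasts (79.7 ± 11.1 CPM, 2.25 ± 0.20), and lower in epithelial cells, macrophages and T cells. HSPA12A, a distant HSP70 relative, shared this pattern with 2.91 ± 0.38 and 2.56 ± 0.34, at means of 12.9 and 9.22 CPM. DNAJB4 was also higher in both (1.98 ± 0.20 and 1.77 ± 0.20). Lower in smooth muscle and pericytes were DNAJC2 (-1.04 ± 0.14), DNAJC15 (-0.76 ± 0.12), DNAJC11, HSPA4 and BAG6.

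Within this class the members did not share 1 pattern. The class joined 3 clusters: a pericyte-like one led by RGS5 and HIGD1B (1362 cells), one led by RERGL and MYH11 (640 cells) and one led by ACTG2 and DES (121 cells, of which 9 in Normal_1, too few for a level). HSPB8 averaged 145 CPM in the RGS5-led, 197 in the RERGL-led and 53.1 in the ACTG2-led cluster. HSPB3 was highest in the RGS5-led cluster (10.5, 0.979 and 0 CPM), while DNAJC6 was highest in the RERGL-led one (1.87, 9.67 and 0 CPM). HSPA2 went the other way from HSPB8, with 362 ± 14.2 CPM (n = 3) in the ACTG2-led cluster against 90.1 ± 48.4 and 137 ± 93.7 in the others. These values describe clusters and carry no test.

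**Figure D3:**
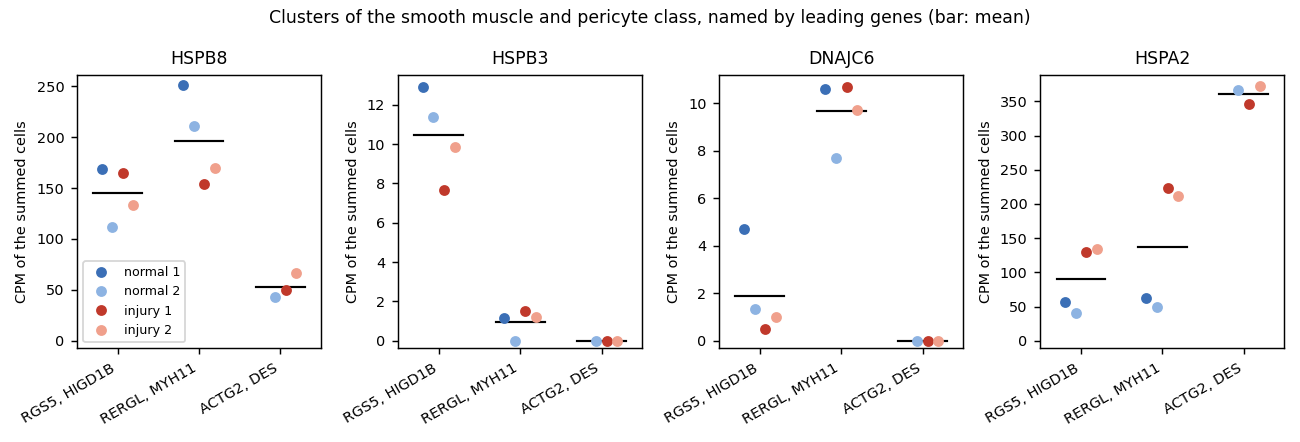
CPM of HSPB8, HSPB3, DNAJC6 and HSPA2 in the 3 clusters of the smooth muscle and pericyte class, 1 coloured point per sample on linear axes, with a bar at the mean. The ACTG2-led cluster has 3 points because Normal_1 held 9 of its cells, and it is the lowest of the clusters for HSPB8 and the highest for HSPA2.

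In epithelial cells, the cells that line the bladder lumen, DNAJC11 alone of the members described next lay apart from the class that followed. HSPA4L, an exchange factor of the HSP110 group, was at 71.5 CPM in Normal_1, 38.5 in Normal_2, 59.0 in Injury_1 and 68.0 in Injury_2 in these cells, 2.21 times the fibroblast mean, and its lowest sample lay below the highest fibroblast sample (40.3). The log2 fold change was 2.24 ± 0.15 (edgeR adjusted p = 1.25e-11). DNAJC11, a protein of the mitochondrial membranes, stood at 53.3 to 68.0 CPM, above every sample of every other class (log2 fold change 1.22 ± 0.13, edgeR adjusted p = 3.28e-08). DNAJC15 (0.91 ± 0.10) and DNAJC19 (0.88 ± 0.13), J-domain proteins of the inner mitochondrial membrane, were higher as well. This made 3 of the 5 mitochondrial members measured, where 31.6% of all genes were higher, while HSPD1 and HSPA9 were not called. DNAJB6, which keeps proteins from aggregating, was higher than the mean of the other classes too (0.99 ± 0.18), at 36.6 CPM against 35.1 in T cells. The samples of DNAJC15, DNAJC19 and DNAJB6 overlapped those of T cells, the next class.

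The endoplasmic reticulum members moved the other way in epithelial cells. HSP90B1 (-0.66 ± 0.15), DNAJB9 (-0.75 ± 0.12), HSPA13 (-1.11 ± 0.13), DNAJC3 (-0.44 ± 0.11) and DNAJC1 (-0.61 ± 0.17) were lower (28.8% of all genes), and DNAJC10 (0.20 ± 0.11) was not called. In fibroblasts 5 of these 6 were higher, among them HSP90B1 (0.52 ± 0.14) and DNAJC1 (0.91 ± 0.15), and HSPA13 was lower (-0.63 ± 0.12). Of 8 other genes of endoplasmic reticulum stress with a row, 6 were higher in fibroblasts, PDIA4 and HERPUD1 among them, and 0 lower. Of all genes 35.2% were higher and 24.9% lower in fibroblasts. DNAJB9, an early target of the unfolded protein response, was highest in endothelial cells at 887 ± 220 CPM (log2 fold change 0.87 ± 0.10) and lowest in T cells at 314 ± 17.2 CPM. Further members lower in epithelial cells were DNAJC18 (-2.13 ± 0.22), HSPA2 (-2.12 ± 0.29), DNAJC27 (-1.82 ± 0.40), HSPBAP1 (-1.81 ± 0.28), HSF4 (-2.81 ± 0.74) and HSPA12A (-1.68 ± 0.57).

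Endothelial cells led for HSP90AB1, which varied little between classes, from 2382 ± 131 CPM in macrophages to 4033 ± 512 in endothelial cells (log2 fold change 0.40 ± 0.10). Endothelial samples overlapped those of smooth muscle and pericytes, the next class. HSPA12B, the HSP70 relative known from vessels, was highest in endothelial cells at 3.75 ± 2.27 CPM from 14 to 44 UMIs per sample, with 0 UMIs in T cells, and the fitted log2 fold change of 4.69 ± 0.46 again depends on the prior count. Its level was highest in the cluster led by genes of arterial vessels such as NOS3 and HEY1 (5.90 ± 3.26 CPM). HSF2, a heat shock factor active in development, was higher in endothelial cells (0.94 ± 0.15), as was DNAJC18 (0.94 ± 0.16). The largest decreases there were those of HSPA4L (-1.13 ± 0.18), DNAJC19 (-0.91 ± 0.15), HSPBAP1, HSPA14, DNAJC1 and DNAJC17.

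Fibroblasts were also highest for HSF4, a factor best known from the lens, at 5.26 to 11.5 CPM against 0.575 to 3.81 in smooth muscle and pericytes (log2 fold change 3.38 ± 0.29). HSPB3 and HSPA12B passed the test in fibroblasts too, at means of 1.43 and 1.44 CPM from 13 to 30 and from 6 to 47 UMIs per sample, and since other classes held 0 UMIs, their fitted fold changes depend on the prior count. The largest decreases there were those of DNAJC7 (-0.95 ± 0.16), HSPA9, the HSP70 of mitochondria (-0.82 ± 0.12), DNAJC11 (-0.78 ± 0.14), CCT5 (-0.76 ± 0.11), DNAJC21 (-0.67 ± 0.14) and DNAJC2 (-0.64 ± 0.13). Of 15 further chaperones and partners outside the member families, 3 were higher in fibroblasts (CRYAB, SIL1 and CHORDC1), where 35.2% of all genes were higher. Another 6 were lower (24.9% of all genes), among them TCP1, a further subunit of the CCT ring (-0.50 ± 0.11).

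The CCT subunits moved together between classes. All 6 subunits tested were lower in fibroblasts (24.9% of all genes), from -0.26 ± 0.10 for CCT8 to -0.76 ± 0.11 for CCT5. In endothelial cells 5 of 6 were higher (28.8% of all genes), from 0.26 ± 0.10 (CCT3) to 0.53 ± 0.09 (CCT4), with CCT8 at 0.15 ± 0.09. In epithelial cells 3 (CCT2, CCT5, CCT7) and in T cells 3 (CCT3, CCT5, CCT7) were higher (31.6% and 22.8% of all genes). In macrophages 3 (CCT4, CCT7, CCT8) were lower (22.1% of all genes). In smooth muscle and pericytes the values lay between -0.09 ± 0.08 (CCT2) and 0.14 ± 0.09 (CCT4) and did not pass the test. The UMIs of all CCT genes summed to 1140 ± 138 CPM in fibroblasts, 1187 ± 75.6 in macrophages and 1802 to 1993 CPM in the other 4 classes. The clearest subunit was CCT3, at 314, 348, 347 and 325 CPM in T cells of Normal_1, Normal_2, Injury_1 and Injury_2, above every sample of every other class (0.66 ± 0.10). A cluster of T cells led by CORO1A and GZMH also had cell division genes such as MCM5 and AURKB among its leading genes. It had enough cells in the injured samples alone, and CCT3 stood at 472 and 482 CPM there. Over the 24 sums of class and sample, the Pearson correlation between CCT subunits had a median of 0.780 over 15 pairs (0.634 to 0.949), against 0.147 over all 666 pairs of the 37 members. With class means taken away the medians were 0.246 and 0.0256. The 24 sums share 4 libraries and 6 classes and are not independent.

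**Figure D4:**
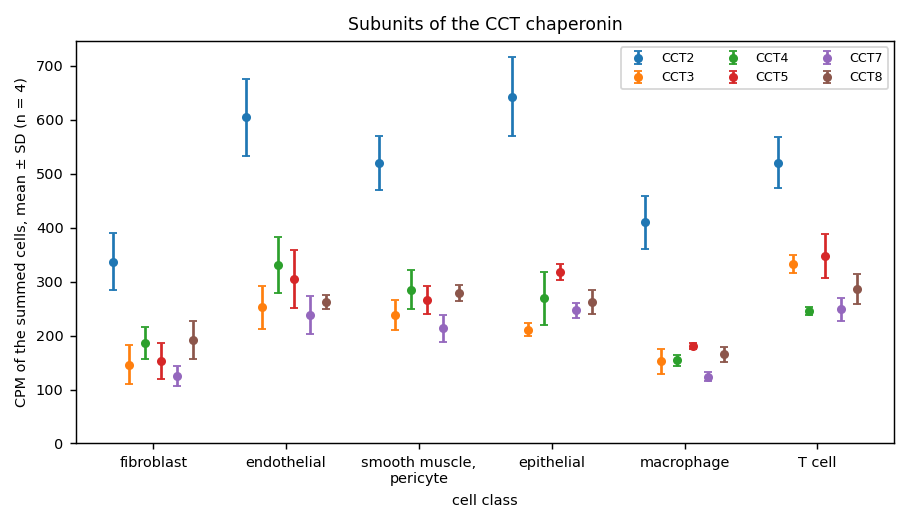
CPM of 6 CCT subunits in the 6 classes (points, mean of 4 samples, with SD as error bars, on an axis from 0). CCT3 is highest in T cells, at 333 CPM, and lowest in fibroblasts, at 146 CPM.

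T cells and macrophages differed from the stroma in other members. In T cells DNAJC2 (0.92 ± 0.13) and HSPA14 (0.82 ± 0.13), the J-domain protein and the HSP70 that sit together on ribosomes, were both higher, at 155 ± 12.6 and 52.2 ± 5.56 CPM, as were HSPA4 (0.66 ± 0.12), DNAJC17 (0.75 ± 0.22) and DNAJC1 (0.63 ± 0.17). In macrophages HSPBAP1, a protein that binds HSPB1, was higher by 2.22 ± 0.23 at 10.6, 20.5, 16.2 and 19.8 CPM in the 4 samples, and T cells, the next class, overlapped them with 14.1 CPM in Normal_1. DNAJB5 (1.07 ± 0.38), HSPA13 (0.49 ± 0.13), BAG6, HSPA9 and DNAJC3 were also higher in macrophages. HSPA12A, DNAJB4, DNAJC12 (-1.43 ± 0.42), BAG3 (-1.32 ± 0.22), DNAJC19 and HSPA8 (-0.97 ± 0.14) were lower in macrophages.

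Injured and normal samples were then compared within each class, to ask whether the chaperones stood differently in healing mucosa. The edgeR test called 0 members in any of the 6 classes, of 48 tested in fibroblasts, 46 in endothelial cells, 44 in smooth muscle and pericytes, 40 in epithelial cells, 38 in macrophages and 35 in T cells. Of all genes it called 2.14% in epithelial cells (0.795% higher and 1.35% lower), 0.154% in T cells (0.0440% higher and 0.110% lower) and 0.00% in each of the other 4. At an unadjusted p under 0.05 there were 5 members in fibroblasts (10.8% of all genes), 3 in endothelial cells (7.03%) and 6 in smooth muscle and pericytes (9.84%). There were 10 in epithelial cells (20.4%), 3 in macrophages (12.7%) and 9 in T cells (14.5%). DESeq2 called HSPB8 and HSPD1 in epithelial cells, HSPA8 in T cells and 0 members in the other 4 classes, and its share of all genes is not given here. With 2 rabbits per group, a change that was not called is not thereby absent. The median log2 fold change of injured against normal was -0.37 for the members in epithelial cells and between -0.18 and -0.05 in the other classes, and between -0.01 and 0.00 for all genes.

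Counted by ranges, both injured samples lay below both normal ones for 16 of 48 members in fibroblasts (28.1% of all genes) and above for 6 (15.9%). In endothelial cells 12 lay below (12.7% of all genes) and 6 above (24.5%), in smooth muscle and pericytes 15 below (21.0%) and 4 above (20.6%), and in epithelial cells 15 below (15.5%) and 9 above (39.4%). In macrophages 7 lay below (16.3%) and 11 above (28.2%), and in T cells 7 below (14.3%) and 11 above (35.3%).

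HSPD1, the chaperonin of mitochondria, was lower in both injured samples than in both normal ones in 5 of the 6 classes. In fibroblasts it stood at 2438 CPM in Normal_1, 805 in Normal_2, 568 in Injury_1 and 583 in Injury_2. In epithelial cells it stood at 1208, 947, 545 and 737 CPM and in T cells at 738, 710, 510 and 534 CPM in the same order of samples. In macrophages the groups overlapped (587, 361, 342 and 386 CPM). The log2 fold change was -1.34 ± 0.49 in fibroblasts (edgeR adjusted p = 0.418) and -0.98 ± 0.28 in epithelial cells (edgeR adjusted p = 0.125). Normal_1 was the highest sample of every class, and without it the fibroblast value was -0.43.

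HSPA8 in fibroblasts gave a log2 fold change of -0.71 ± 0.22 (edgeR adjusted p = 0.344, and -0.47 without Normal_1), with both injured samples below both normal ones in each of the 5 fibroblast clusters. In T cells, at 2058, 1991, 1351 and 1226 CPM in Normal_1, Normal_2, Injury_1 and Injury_2, it gave -0.82 ± 0.19 (edgeR adjusted p = 0.164). Markers of other cells differed between these T cell sums: 5 B cell markers summed to 495, 344, 85.1 and 91.7 CPM, 4 neutrophil markers to 22.6, 35.4, 485 and 709.7 CPM and 5 fibroblast markers to 98.9, 1731, 837 and 679.7 CPM in the same order of samples, and their part in the T cell values was not tested. HSPB1 was lower in both injured samples in macrophages (3255 and 2280 against 1135 and 1596 CPM, log2 fold change -1.07 ± 0.29, edgeR adjusted p = 0.227), and likewise in T cells and in smooth muscle and pericytes (-0.79 ± 0.22, edgeR adjusted p = 0.331). The macrophage class held 132, 119, 645 and 532 cells in Normal_1, Normal_2, Injury_1 and Injury_2. Clustered without integration it held 107, 100, 428 and 389, and a cluster led by SERPINB2 and IL1B was named neutrophil. The part of such cells in the macrophage values was not tested. HSPA8 and HSPB1 were correlated over the 24 sums (Pearson r 0.864, and 0.785 with class means taken away), as a description of sums that share libraries.

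Other values also differed between the samples. CRYAB, a small heat shock protein outside the rule and chosen here after its values were seen, stood at 12363, 5626, 2055 and 2544 CPM in fibroblasts of Normal_1, Normal_2, Injury_1 and Injury_2. The summed 9 immediate early genes stood at 9583, 17018, 17637 and 16805 CPM there, lowest in Normal_1, the sample that was highest for HSPA8. The median mitochondrial share of fibroblasts was 8.19%, 8.56%, 7.21% and 7.34% in the same order. The part of cell quality, digestion time and depth in these values was not tested, and with 1 library per rabbit they cannot be told apart from the rabbit.

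HSPA2 in smooth muscle and pericytes went upwards. It stood at 62.7 CPM in Normal_1, 86.8 in Normal_2, 164 in Injury_1 and 175 in Injury_2, with a log2 fold change of 1.19 ± 0.27 (edgeR adjusted p = 0.253). Both injured samples lay above both normal ones within the RGS5-led cluster (129 and 134 against 56.3 and 40.8 CPM) and within the RERGL-led cluster (223 and 212 against 62.5 and 48.6 CPM). The ACTG2-led cluster, rich in HSPA2, made up 9 of 448 cells in Normal_1, 55 of 485 in Normal_2, 25 of 588 in Injury_1 and 32 of 602 in Injury_2, and with it left out, a choice made after these values were seen, the log2 fold change was 1.61 ± 0.24 (edgeR adjusted p = 0.115, with 0.00% of all genes called). The class had a higher mitochondrial share in normal (12.02% and 12.4%) than in injured samples (8.74% and 9.64%).

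In epithelial cells BAG3 and HSPB8 took opposite directions. BAG3 stood at 161 and 188 CPM in the normal and 345 and 367 CPM in the injured samples, apart in both the cluster led by SPP1 and CYP4B1 and the one led by KRT5 and SERPINB5 (log2 fold change 0.77 ± 0.26, edgeR adjusted p = 0.168). HSPB8 stood at 6.26 and 12.5 CPM against 2.35 and 2.49 CPM, from 33, 38, 17 and 14 UMIs (-2.21 ± 0.54, edgeR adjusted p = 0.0870). Smooth muscle markers moved with the HSPB8 of Normal_2: the 7 measured markers summed to 26.9, 214, 36.8 and 25.5 CPM in epithelial cells of Normal_1, Normal_2, Injury_1 and Injury_2, ACTA2 among them at 9.29, 81.9, 13.8 and 6.59 CPM, while DES stayed under 1 CPM in all 4. Their part in the HSPB8 values was not tested. DNAJC12, a partner of amino acid hydroxylases, gave -2.62 ± 0.68 (edgeR adjusted p = 0.0991), from 41 UMIs in Normal_1 and 5 to 7 in each other sample, and without Normal_1 the value was -1.44.

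**Figure D5:**
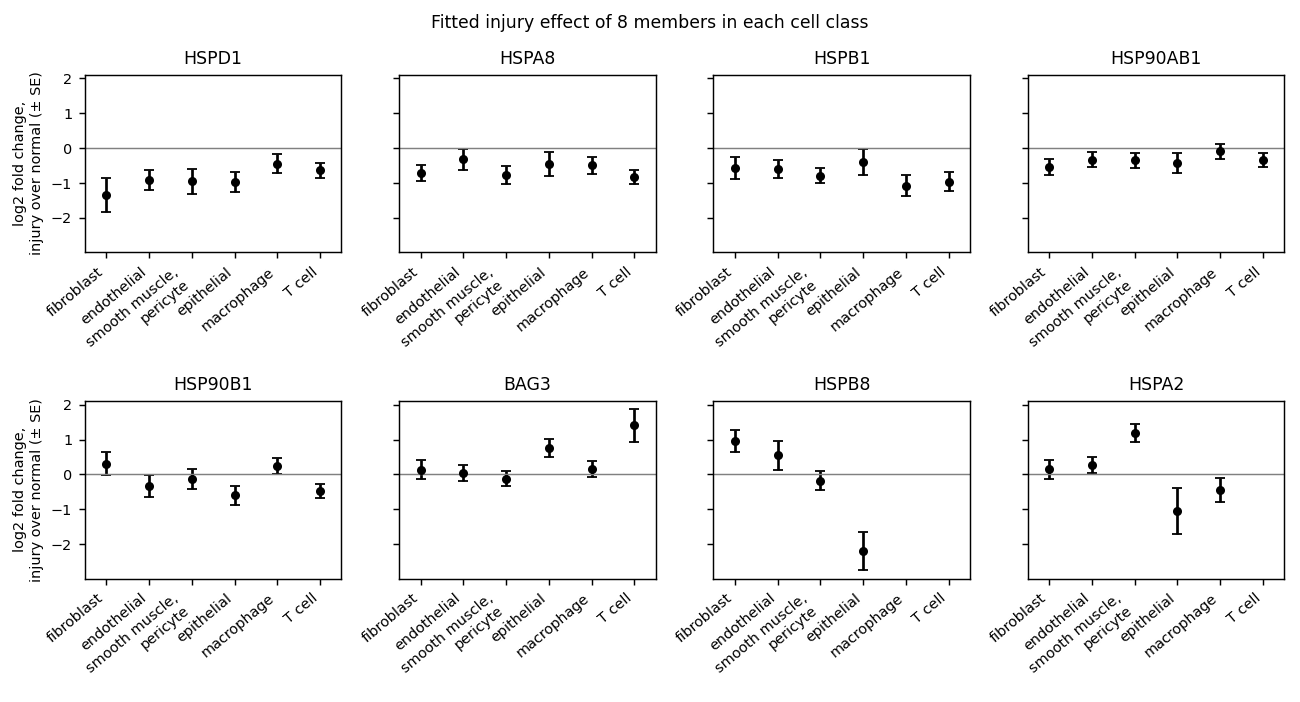
Log2 fold change of injured against normal samples for 8 members in each class (points, with SE as bars, 2 rabbits per group, blank where a member was not tested). No value passed an adjusted p of 0.05, HSPD1 and HSPA8 lie at or below 0, and HSPA2 in smooth muscle and pericytes and BAG3 in epithelial cells lie above it.

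The difference between the injury effects of fibroblasts and epithelial cells was tested directly, in a fit of 4 classes with the sample as a block. It called 3 of 48 members (6.25%), all with a higher effect in fibroblasts. This share is close to that of all genes, of which 5.94% were called, 3.94% in that direction and 2.01% in the other. In all 12 members had an unadjusted p under 0.05 (20.6% of all genes). DESeq2 called 4, DNAJC1 being the added one, and its share of all genes is not given here. HSP90B1 stood at 1397 and 2342 CPM in normal and 2144 and 2148 CPM in injured fibroblasts, groups that overlap, and in epithelial cells both injured samples (1019 and 973 CPM) lay below both normal ones (1222 and 1295). The difference of the log2 fold changes was 0.88 ± 0.20 (edgeR adjusted p = 0.0225). For HSPB8, at 9.14, 8.02, 12.1 and 18.8 CPM in fibroblasts, the difference was 3.00 ± 0.71 (edgeR adjusted p = 0.0352). For HSPA12A it was 3.68 ± 0.94 (edgeR adjusted p = 0.0365), resting on 7, 8, 2 and 0 UMIs in epithelial cells, and without Injury_1 it was 7.04. Without Injury_1 or without Injury_2 edgeR called 0 members, and at a limit of 10% mitochondrial UMIs it called 0 of these 3 and DNAJB4 instead. The cells of both classes fell into different clusters by group. The PTPRQ-led cluster held 21.1% and 31.2% of normal but 9.02% and 12.6% of injured fibroblasts, and the SPP1-led cluster 57.4% and 35.7% of normal but 71.4% and 66.9% of injured epithelial cells. Fitted within a cluster, a choice made after the data were seen, the injury effect on HSP90B1 was -0.68 ± 0.25 (edgeR adjusted p = 0.144) in the KRT5-led and -0.28 ± 0.30 (edgeR adjusted p = 0.781) in the SPP1-led epithelial cluster. Between fibroblasts and endothelial cells, and between fibroblasts and smooth muscle and pericytes, edgeR called 0 members. Of all genes edgeR called 0.223% (0.156% higher and 0.0669% lower) and 0.0557% (0.0223% and 0.0334%). At an unadjusted p under 0.05 there were 4 and 2 members (8.70% and 7.22% of all genes). DESeq2 called 0 members in both, and its share of all genes is not given here.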

How the data were processed

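Libraries were made with 10x 3′ v3 chemistry from bladder mucosa of 2 normal and 2 injured rabbits. The authors deposited, per sample, a filtered matrix of raw UMI counts per gene and cell, written by Cell Ranger 6.0.1 per the matrix headers. The genome build is not given in the sources used here. The members and gene lists were chosen with earlier results of these data known.

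Barcodes with at least 500 UMIs, 200 genes and at most 15% mitochondrial UMIs (13 genes) were kept. Cells were integrated (CCA) and clustered in Seurat 5.3.0 with 1995 variable genes (5 members left out of 2000), 30 components and a resolution of 0.8. Clusters were named from marker lists, by rules set partly after the clusters had been seen, and 4 of 27 clusters stayed unnamed. No cell was removed singly as a doublet, since Scrublet (scanpy 1.11.5) marked 0.255% to 2.60% of cells, and removal of the top 5% was an alternative. Clusters of 124 and 61 cells stayed unnamed, and so outside the classes, because most of their cells had a high doublet score.

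UMI counts were summed per sample and class and tested with edgeR 4.0.16 (quasi-likelihood, filterByExpr, TMM, Benjamini-Hochberg over all genes, threshold 0.05), the sample being a block where classes were compared. SE was derived from the fold change and the test statistic. DESeq2 1.42.0 was an alternative. The fits were also run on simulated counts with changes of known size, and the outcome is not given here. Apart from the set changes these counts held no differences between classes or clusters. Members were named by a rule: 24 well-known genes where present, up to 6 with the largest called change per direction and comparison, and per family the highest member and the one with the largest ratio to the next class. Genes that the text calls chosen after their values were seen fall outside it. Replicate numbers name different rabbits and were not treated as pairs in the main fits.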

Additional observations from a re-analysis of the deposited data

Results flagged for a closer look

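For 3 members the injury effect differed between fibroblasts and epithelial cells by the test of that difference (edgeR, 4 samples, 2 per group). They are 6.25% of the 48 members tested, close to the 5.94% of all genes called in the same test. The difference of the log2 fold changes, fibroblasts minus epithelial cells, was 0.88 for HSP90B1, 3.00 for HSPB8 and 3.68 for HSPA12A. Over the alternatives it ranged from 0.62 to 1.13 for HSP90B1 (called in 9 of 13), from 2.14 to 3.67 for HSPB8 (10 of 13) and from 1.67 to 7.04 for HSPA12A (7 of 13). In epithelial cells HSPA12A rests on at most 8 UMIs per sample, and HSPB8 moves with the smooth muscle markers of Normal_2, whose part in it was not tested.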

How the results depend on the processing

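Counts of members called between injured and normal samples, 0 in each class, depended on the filter and on single rabbits. Here and below, outside the fits within clusters, the share of all genes called under each alternative is not given. The changes in these counts are therefore no result particular to the members. Without a filter on low counts there were 1 in fibroblasts, 1 in smooth muscle and pericytes, 6 in epithelial cells, 1 in macrophages and 3 in T cells. DESeq2 gave 2 in epithelial cells and 1 in T cells. Leaving out 1 library at a time gave 0 to 1 in fibroblasts, 0 in endothelial cells, 0 to 6 in smooth muscle and pericytes, 0 to 4 in epithelial cells, 0 to 2 in macrophages and 0 to 7 in T cells, with the highest count in each of these 5 classes without Normal_2. In fits within clusters, chosen after the data were seen, the KRT5-led epithelial cluster gave 1 of 38 members (DNAJB4, 1.78), with 6.85% of all genes called, and the SPP1-led one 0 of 36 (DNAJB4 -0.26), with 0.945% called and 4 members at an unadjusted p under 0.05. The cause was not tested.

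Against the other classes, leaving out 1 library gave 26 to 34 calls in fibroblasts, 20 to 29 in endothelial cells (20 without Injury_1), 20 to 25 in smooth muscle and pericytes, 25 to 31 in epithelial cells, 13 to 20 in macrophages (13 without Injury_2) and 22 to 26 in T cells. Between fibroblasts and epithelial cells, a limit of 10% mitochondrial UMIs gave 1 call (DNAJB4, with a difference of -1.27) and 0 of the 3 others. Leaving out 1 library gave 0 to 5 calls: 5 without Normal_1 (HSPB8 and HSPA12A shared), 5 without Normal_2 (HSPB8 and HSP90B1 shared, with HSPA8, HSPD1 and BAG3 in the opposite direction) and 0 without either injured library. Of 22 injury log2 fold changes followed over the alternatives, 0 changed sign. These 22 were picked for the text and do not stand for the other members. Class differences were followed as counts only. An injury effect outside the 22, that on HSPA8 in epithelial cells, was a log2 fold change of 0.08 in the KRT5-led and -0.89 in the SPP1-led cluster, neither called. With the replicate number as a block, 0 members were called in each of the 6 classes. The deviations of same-numbered samples correlated between -0.03 and 0.19. These correlations were not tested and cannot show whether same-numbered libraries share anything. With 2 rabbits per group, small changes could not be told from the spread, and classes of 100 cells in a sample give few UMIs for low members.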

Other observations

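The 4 classes that were too small for a test held chaperones at levels of their own, given here as values. In the 115 cells named neurone or glia-like, of which 7 came from Normal_2, HSPA8 stood at 21016 CPM in Normal_1, 17739 in Normal_2, 4906 in Injury_1 and 5149 in Injury_2. BAG3 stood at 752, 763, 651 and 577 CPM there in the same order of samples, and HSPA12A at 47.02, 76.3, 37.9 and 36.1 CPM. In the 106 mast cells, of which 7 came from Normal_1 and 18 from Normal_2, HSPA8 ranged from 1420 to 5126 CPM and HSPB1 from 261 to 658 CPM. In the 222 B cells HSPB1 stood at 127 to 265 CPM and HSP90B1 at 259.8 to 2764 CPM. Of these cells 12 came from Normal_1 and 7 from Normal_2, too few for a firm level in the normal samples. In the 213 neutrophils, of which 143 came from Injury_1, HSP90AB1 stood at 660.4 to 1636 CPM, and HSPD1 was at 0 in both normal samples, which held 5 and 15 of these cells, and at 73.2 and 115 CPM in the injured ones.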
